A study of Mus musculus with 4 samples.

Results

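The genes of melanin synthesis and of the pigment epithelium were followed in RNA-seq libraries of E13.5 mouse retinas. They are 10 genes of the 24062 in the count table, chosen by name: *Tyr*, *Tyrp1*, *Dct*, *Pmel*, *Mlana*, *Mitf*, *Rpe65*, *Slc45a2*, *Oca2* and *Gpr143*. The choice used no measured value, although earlier results of these data were known when it was made. There were 2 libraries from wildtype embryos and 2 from *Nrf1 f/f;Six3-Cre* embryos, all at E13.5 and on a C57BL/6 129 mixed strain, and each library was made from 18 pooled retinas. In the *Nrf1 f/f;Six3-Cre* embryos both alleles of *Nrf1*, a transcription factor for nuclear genes of mitochondrial function, carry loxP sites around exon 4, and the Six3-Cre transgene becomes active in progenitors of the central retina. The labels call the second genotype Nrf1-CKO. The chimeras that founded the *Nrf1* allele were bred to females of an albino B6 strain that carries a mutation of *Tyr*, and the *Tyr* genotype of the embryos is not given in the sources used here.

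Melanin is made in melanosomes, organelles related to lysosomes, in the pigment epithelium that surrounds the neural retina and in melanocytes, which arise from the neural crest. Tyrosinase, encoded by *Tyr*, starts the pathway from tyrosine, and the enzymes encoded by *Tyrp1* and *Dct* act after it. *Pmel* encodes the protein that forms the fibrils on which melanin is laid down, and MITF, a basic helix-loop-helix factor, activates many of these genes through E-boxes in their promoters. At E13.5 the pigment epithelium is already pigmented, whereas the visual cycle, in which the isomerase RPE65 acts, is set up later.

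The libraries held 74577660 to 85933945 reads assigned to genes. *Nrf1* itself had 9052 and 7789 reads in wildtype, next to 8594 and 8284 in mutant libraries. The gene's total does not check the labels, since the deletion removes only exon 4. The neural retina genes *Rax*, *Six6* and *Pax6* were abundant in every library, with between 27824 and 55418 reads each. A difference in bulk RNA does not separate a change in the number of cells of a type from a change in RNA per cell. The replicates are pools of several littermates, so p-values measure the spread between pools.

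Promoter windows of RefSeq (GRCm38.p6), which run from 250 bases before to 50 bases after the annotated start, were given for 6 of the 10 genes, *Tyr*, *Tyrp1*, *Dct*, *Mitf*, *Rpe65* and *Oca2*. These genes have 8 windows, 3 of them of *Mitf*. The sites are shown because *Mitf* is among the 10 genes, and no test ties them to the counts. The E-box form that MITF binds, CATGTG, was searched on both strands and was found in windows of *Tyr*, *Tyrp1*, *Dct*, *Rpe65* and *Oca2*, that is in 5 of the 8 windows, and in 14.2% of all 32851 windows. The longer form TCATGTG, which contains it and is the core of the M-box of melanin genes, was found in 3 of the 8 windows, those of *Tyr*, *Tyrp1* and *Dct*, and in 3.77% of all windows. The following stretches of 30 bases hold the motif in capitals and are written 5′ to 3′ on the strand that reads CATGTG.
*Tyr*, chr7:87493516-87493545, minus strand: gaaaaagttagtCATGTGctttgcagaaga
*Tyrp1*, chr4:80834155-80834184, plus strand: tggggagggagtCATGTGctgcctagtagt
*Dct*, chr14:118052379-118052408, minus strand: tgcacttagggtCATGTGctaacaaagagg
*Dct*, chr14:118052461-118052490, plus strand: ctttattgggctCATGTGtcccagccaagc
*Oca2*, chr7:56239561-56239590, minus strand: gaaaattccagcCATGTGtagcaagctcaa
*Rpe65*, chr3:159598931-159598960, minus strand: gataaaaaagagcCATGTGggcctgccatg

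The motif began 21 bases before the annotated start of *Tyr* and 46 bases before that of *Tyrp1*, and on the coding strand in both. In *Tyr*, *Tyrp1* and the *Dct* site on the minus strand, the bases around it read gtCATGTGct. *Dct* held the motif at 150 bases before its start on the coding strand and at 232 bases before it on the other strand. The *Tyrp1* site lies within the first exon of the longest GENCODE gene model. The upstream window of *Dct* also held TAATCC, the letters bound by OTX factors, which were in 4 of the 8 windows and in 7.06% of all windows. The 250 bases before the *Dct* start, chr14:118052247-118052496 on the minus strand, are shown with TCATGTG, its reverse complement and TAATCC in capitals, because they hold all of these letters.
*Dct*: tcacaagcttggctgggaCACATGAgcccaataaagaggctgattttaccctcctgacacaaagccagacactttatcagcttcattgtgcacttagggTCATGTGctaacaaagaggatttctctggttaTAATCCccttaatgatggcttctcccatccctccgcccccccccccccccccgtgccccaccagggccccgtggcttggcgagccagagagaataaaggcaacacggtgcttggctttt

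The palindromic E-box CACGTG was not found in the windows of these 6 genes and was in 7.15% of all windows. The letters GCGCATG, an NRF1-type site, were also not found in them and were in 3.91% of all windows. No match says only that these letters are not in these windows.

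Most melanin genes were more abundant in *Nrf1 f/f;Six3-Cre* than in wildtype retinas. Of the 10 genes, 9 had enough reads to be tested, and 8 of them, *Tyr*, *Tyrp1*, *Dct*, *Pmel*, *Mitf*, *Slc45a2*, *Oca2* and *Gpr143*, were called higher by edgeR's quasi-likelihood test, which required a 1.4-fold difference and an adjusted p no higher than 0.2. None was called lower. Over all 15762 tested genes 12.8% were called higher and 8.04% lower. The median log2 fold change of the 9 genes was 1.05, against 0.00073 over all tested genes. In the same 8 genes each mutant library exceeded each wildtype library, as was the case in 30.9% of all tested genes. The 9 genes had at least 28 reads in every library, so that none entered the test through the mutant libraries alone.

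**Figure D1:**
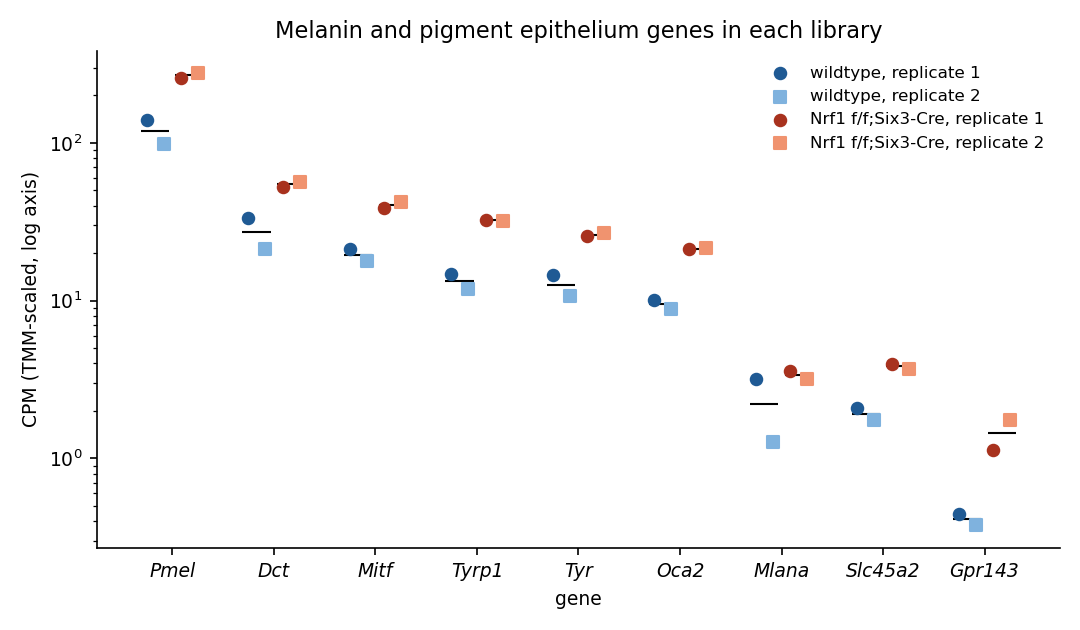
Normalised counts (CPM, scaled with edgeR's TMM factors, log axis) of the 9 tested genes in each of the 4 libraries, with a bar at the mean of each genotype. Both mutant libraries sit above both wildtype libraries for 8 genes, while for *Mlana* wildtype replicate 1 (3.19 CPM) lies level with the mutant libraries (3.57 and 3.18 CPM).

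*Tyr*, on chromosome 7 from 87424771 to 87493512, had 1274 and 797 reads in wildtype but 2140 and 2211 in mutant libraries. The genotypes did not overlap, and the spread was wider in the wildtype. The level, in counts scaled to library size (CPM), rose from 12.6 ± 2.69 to 26.2 ± 0.682 CPM (SD, n = 2), a log2 fold change of 1.05 (SE 0.15, edgeR adjusted p = 0.00116). *Tyrp1*, on chromosome 4 from 80834123 to 80851719, had 1292, 882, 2715 and 2652 reads in the same order of libraries, again without overlap of the genotypes. It rose from 13.3 ± 2.02 to 32.4 ± 0.443 CPM (SD, n = 2), and its log2 fold change was 1.28 (SE 0.12, edgeR adjusted p = 0.000231). *Dct*, on chromosome 14 from 118012790 to 118052244, had 2926, 1579, 4356 and 4691 reads. The wildtype libraries of *Dct* differed from each other by 1.57-fold in CPM and still both lay below the mutant libraries. *Dct* rose from 27.3 ± 8.57 to 54.6 ± 3.02 CPM (SD, n = 2), a log2 fold change of 0.99 (SE 0.18, edgeR adjusted p = 0.00398). The 3 enzymes of melanin synthesis thus rose by between 1.99-fold and 2.43-fold.

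Of the structural proteins of the melanosome, *Pmel*, on chromosome 10 from 128704195 to 128720238, had 12219 and 7347 reads in wildtype but 21570 and 22833 in mutant libraries. The genotypes did not overlap. It rose from 119 ± 28.6 to 268 ± 11.5 CPM (SD, n = 2), a log2 fold change of 1.17 (SE 0.14, edgeR adjusted p = 0.000608). Exons of *Pmel* overlap those of *Cdk2* by up to 34 bases and those of *Dgka* by up to 105 bases on the opposite strand, and the sources used here do not say whether strand was used in counting. *Cdk2* and *Dgka*, looked up for this overlap, were not called, with log2 fold changes of 0.08 and -0.28. *Mlana*, on chromosome 19 from 29697824 to 29708634, encodes a small membrane protein of early melanosomes that binds PMEL. Its libraries held 279 and 94 reads (wildtype) and 297 and 263 reads (mutant), and wildtype replicate 1 reached the level of the mutant libraries. *Mlana* was not called, with 2.23 ± 1.36 and 3.38 ± 0.280 CPM (SD, n = 2) in the genotypes, its log2 fold change being 0.59 (SE 0.39, edgeR adjusted p = 0.320). This value rested on the wildtype libraries, since the log2 fold change was 1.42 and called without wildtype replicate 1 (adjusted p = 0.0259) and 0.087 without wildtype replicate 2.

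Genes for transporters and a receptor of the melanosome membrane were also called higher. *Oca2*, which encodes an anion channel that raises melanosome pH, lies on chromosome 7 from 56239760 to 56536518 and had 888 and 654 reads in wildtype but 1754 and 1796 in mutant libraries. The mutant libraries were nearly equal and above both wildtype libraries, with a log2 fold change of 1.17 (SE 0.12, edgeR adjusted p = 0.000283). *Slc45a2*, a transporter gene that is mutated in a form of oculocutaneous albinism, lies on chromosome 15 from 11000721 to 11029233 and had 184, 130, 329 and 306 reads. Its genotypes did not overlap, and the log2 fold change was 0.99 (SE 0.24, edgeR adjusted p = 0.0177). *Gpr143*, the gene of ocular albinism on the X chromosome (X, 152781921 to 152808646), encodes a receptor of the melanosome membrane and had 39, 28, 94 and 146 reads. Its mutant libraries were the most unlike each other among the 9 genes, but both exceeded the wildtype, and the log2 fold change of 1.81 had the widest error of the called genes (SE 0.45, edgeR adjusted p = 0.0191). On the deposited normalized values, *Slc45a2* and *Gpr143* had log2 fold changes of 0.41 and 0.42, below 1.4-fold, and 6 of the 8 genes were called with limma.

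*Mitf*, on chromosome 6 from 97807052 to 98021349, is the transcription factor among the 10 genes. It had 1861 and 1316 reads in wildtype but 3214 and 3482 in mutant libraries, without overlap. It rose from 19.5 ± 2.48 to 40.4 ± 2.40 CPM (SD, n = 2), a log2 fold change of 1.05 (SE 0.11, edgeR adjusted p = 0.000318). Counts per gene do not separate the *Mitf* transcripts that start at the promoter used in melanocytes from those that start at promoters used in the pigment epithelium. *Rpe65*, on chromosome 3 from 159599175 to 159625321, had 0 and 4 reads in wildtype, next to 0 and 0 in mutant libraries, too few for a test or a fold change. At this depth *Rpe65* was at the limit of detection in both genotypes.

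**Figure D2:**
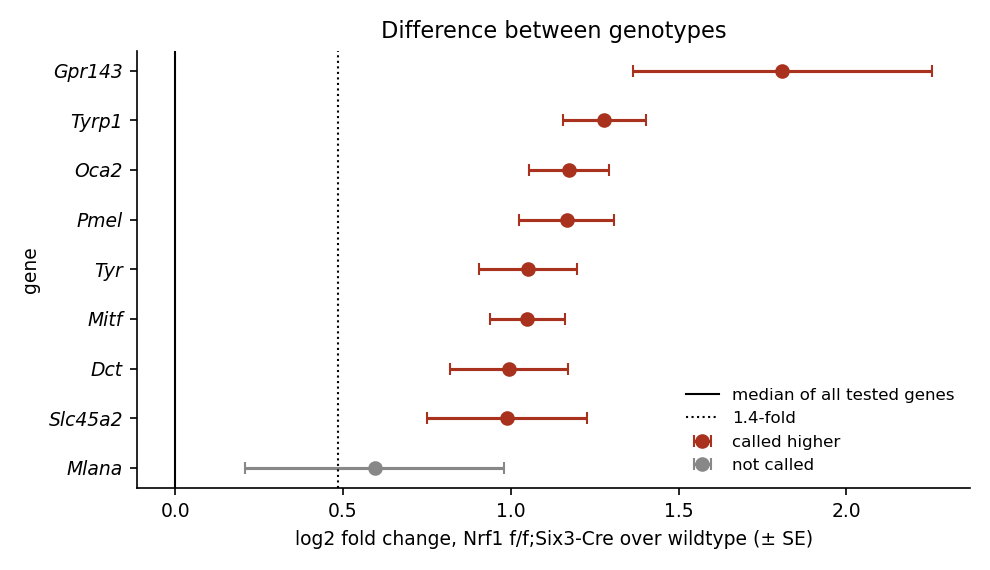
Log2 fold change of each tested gene in *Nrf1 f/f;Six3-Cre* over wildtype retinas from edgeR, with bars of 1 SE; the solid line is the median of all tested genes and the dotted line a fold of 1.4. Most values lie close together, from 0.99 to 1.28, with *Gpr143* above (1.81) and *Mlana*, which was not called, below (0.59).

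Levels were compared between genes only after division by the length of the merged exons in the GENCODE annotation of GRCm38. On the scale of CPM per kilobase, *Pmel* led in both genotypes, with means of 52.0 in wildtype and 117 in mutant retinas. In wildtype *Tyrp1* (4.71) and *Dct* (4.64) came next and could not be ordered, since the 2 libraries of *Dct* lay on either side of those of *Tyrp1*. *Mitf* (3.15), *Oca2* (2.39) and *Tyr* (1.78) followed without overlap, and *Mlana* (2.11), whose libraries stood at 3.01 and 1.20, overlapped all 3 of them. *Slc45a2* (0.646) and *Gpr143* (0.206) were lowest of the tested genes. In mutant retinas the same scale gave 11.5 for *Tyrp1*, 9.26 for *Dct*, 6.52 for *Mitf*, 5.41 for *Oca2*, 3.69 for *Tyr*, 3.20 for *Mlana*, 1.28 for *Slc45a2* and 0.726 for *Gpr143*, and there no neighbours overlapped. The order thus differed between the genotypes only in the places of *Mlana* and *Tyr*, which the spread of *Mlana* in the wildtype does not resolve.

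The wildtype libraries also differed from each other in the melanin genes. All 9 tested genes had a higher CPM in wildtype replicate 1 than in wildtype replicate 2, with a median ratio of 1.24 and the largest ratio, 2.51, in *Mlana*, whereas 49.7% of all tested genes were higher in that replicate. In the mutant libraries 3 of the 9 genes were higher in replicate 1, with ratios to replicate 2 from 0.641 to 1.12 and a median of 0.964. The same wildtype order was seen in 13 of 19 pigment epithelium genes (median ratio 1.17) and 16 of 27 melanosome genes (1.02). It was also seen in 9 of 11 periocular mesenchyme genes (1.39), 9 of 11 melanoblast genes (1.22), 8 of 10 ciliary margin genes (1.08), 7 of 11 macrophage genes (1.07) and 6 of 8 endothelial genes (1.11). Only 5 of 18 regulators (0.944) and 2 of 5 erythroid genes (0.851) had it. The opposite order was seen in 10 of 10 lens genes (0.366) and 8 of 10 neural retina genes (0.937). Without wildtype replicate 1 the median log2 fold change of the 9 genes was 1.36, and without wildtype replicate 2 it was 0.93. The 8 genes were called in each of the 4 fits that left out 1 library.

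Read counts relative to *Pmel* in the same library need no scaling between libraries. *Tyr* had 10.4% and 10.8% of the reads of *Pmel* in wildtype, compared with 9.92% and 9.68% in mutant libraries. *Tyrp1* had 10.6%, 12.0%, 12.6% and 11.6%, and *Dct* 23.9%, 21.5%, 20.2% and 20.5%. For these genes and for *Mitf* the highest ratio was between 1.12 and 1.20 times the lowest, while the CPM of the same genes ranged over 2.37-fold to 2.75-fold. *Oca2* and *Slc45a2* had ratios that ranged over 1.23-fold and 1.32-fold. *Mlana*, with 2.28% in wildtype replicate 1 and 1.28%, 1.38% and 1.15% in the other libraries, and *Gpr143*, with 0.319%, 0.381%, 0.436% and 0.639%, ranged most widely. *Pmel* alone gave 57.3% to 59.5% of the summed reads of the 10 genes. This sum was 20962 and 12831 reads in wildtype, next to 36469 and 38380 in mutant libraries.

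**Figure D3:**
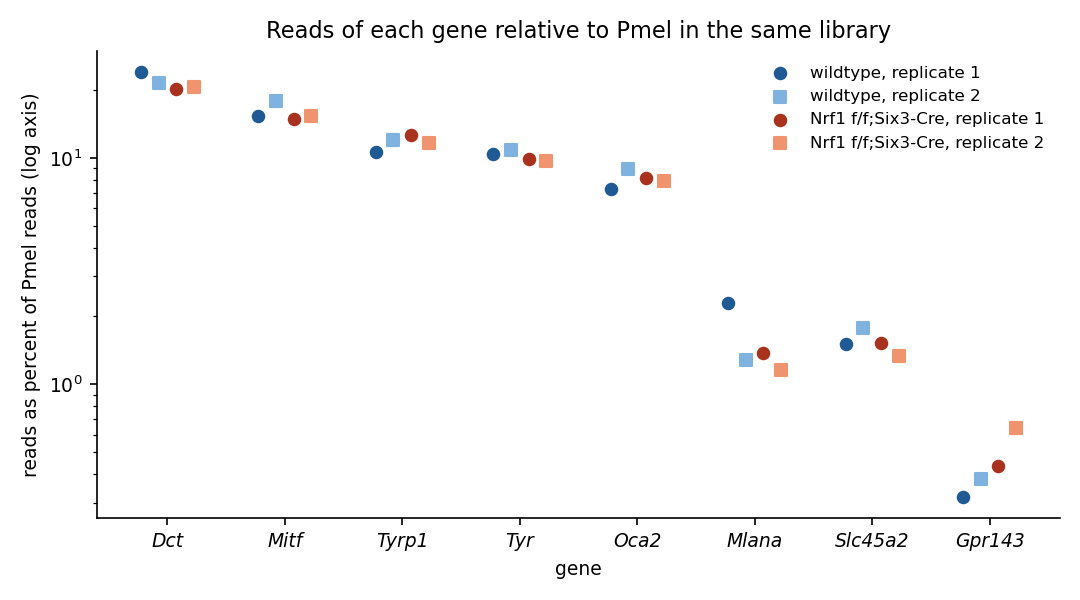
Reads of each gene as a percentage of the *Pmel* reads of the same library (log axis), with blue for wildtype and red for *Nrf1 f/f;Six3-Cre* libraries. The 4 points lie close together for *Dct*, *Mitf*, *Tyrp1* and *Tyr*, wildtype replicate 1 stands apart for *Mlana* (2.28%), and *Gpr143* is highest in mutant replicate 2 (0.639%).

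Among 13422 other genes with a mean of at least 1 CPM, the gene with the pattern most like the median pattern of the 9 genes over the 4 libraries was *Trpm1*, a cation channel gene of melanocytes, pigment epithelium and, later, bipolar cells. It had 10226 and 6667 reads in wildtype but 18623 and 18973 in mutant libraries. For genes chosen in this way the difference between the genotypes follows from the choice and supports nothing. *Trpm1* is also in the list of melanosome genes, which was drawn up by function. The distance between the patterns, on centred log2 CPM, was 0.0400 for *Trpm1* and rose to 0.115 for the eighth gene. The others in order were *Kcne1*, *Cnn2*, *Tbx20*, *Igf2os*, *Svep1*, *Mcam* and *C130074G19Rik*. *Igf2os* is an antisense gene, whose reads cannot be told from those of its partner without strand. With 4 libraries many genes can share a pattern by their genotype difference and the order of the wildtype libraries alone.

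Other genes of the melanosome gave a mixed picture. Of 27 genes for melanosome formation and transport, 8 were called higher, 1 lower and 18 were not called, and the median log2 fold change was 0.25. The genes that rose were *Trpm1* (1.13), the cystine transporter gene *Slc7a11* (1.72), the small GTPase genes *Rab38* (1.31), *Rab32* (1.20) and *Rab27a* (0.92), the calcium exchanger gene *Slc24a5* (0.87), *Gpnmb* (1.15), which is related to *Pmel*, and the tetraspanin gene *Cd63* (0.62), all as log2 fold changes. *Rab32* was picked by the study from these libraries and is no independent evidence, and *Gpnmb* and *Cd63* are also expressed by phagocytes. *Slc7a11*, which supplies cystine for pheomelanin and glutathione, had 1449, 813, 4051 and 3455 reads. The gene that fell was *Ap3b1*, a subunit of an adaptor complex for lysosome-related organelles, with a log2 fold change of -0.55 (edgeR adjusted p = 0.00166), and it was not called without mutant replicate 2 or with glmTreat, edgeR's test against the fold of 1.4 itself. *Slc24a5* lost its call in 4 and *Cd63* in 2 of 15 alternatives, among them glmTreat and limma on the deposited values for both, and *Slc24a5* also without wildtype replicate 2. The *Hps* and *Bloc1s* genes, which serve such organelles in many cell types, were not called. The 5 *Hps* genes had log2 fold changes from 0.05 to 0.37, and the 4 *Bloc1s* genes from -0.20 to 0.15.

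Of 23 further genes of the pigment epithelium, 19 were tested, 12 of them were called higher, 1 lower and 6 were not called, and the median log2 fold change was 0.73. *Stra6*, the receptor gene for retinol uptake, had 5664 and 4092 reads in wildtype but 9264 and 10433 in mutant libraries, with a log2 fold change of 0.99. The phagocytosis receptor gene *Mertk* (1.13), the retinoid-binding protein gene *Rlbp1* (0.73), the P-cadherin gene *Cdh3* (1.06), the potassium channel gene *Kcnj13* (1.89) and the secreted inhibitor gene *Timp3* (1.33) were also called higher, *Rlbp1* not with glmTreat or with limma on the deposited values. The wildtype libraries of *Kcnj13* held 163 and 57 reads, a 2.42-fold difference in CPM, and its mutant libraries 366 and 448. The largest log2 fold change of the list was that of *Cdh1*, the gene of E-cadherin, which surface epithelium and lens epithelium also express. *Cdh1* had 375 and 235 reads in wildtype but 2494 and 1891 in mutant libraries, a log2 fold change of 2.82 (SE 0.19, edgeR adjusted p = 7.88e-05). In contrast, *Rrh*, which encodes peropsin, fell from 766 and 595 to 197 and 170 reads, a log2 fold change of -1.92 (SE 0.18, edgeR adjusted p = 0.000228). *Lrat*, *Rgr*, *Slc16a8* and *Ermn* had at most 26 reads in any library and were not tested, as for *Rpe65*, and *Best1*, with 56, 96, 23 and 56 reads, was not called.

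Among 18 regulators of the choice between pigment epithelium and neural retina, 4 were called higher, 1 lower and 13 were not called. The median log2 fold change was 0.08, and it was -0.0040 without wildtype replicate 1 and 0.17 without wildtype replicate 2. Of the relatives of *Mitf*, *Tfec* (1.03) and *Tfeb* (0.72) were called higher, while *Tfe3* (0.16) was not called. *Otx1*, with 1756 and 1312 reads in wildtype but 3229 and 3549 in mutant libraries, rose with a log2 fold change of 1.11 (SE 0.10, edgeR adjusted p = 0.000211). *Otx2*, needed for the pigment epithelium and also expressed in photoreceptor precursors, had 8392, 6861, 7368 and 7888 reads and overlapped between the genotypes, with a log2 fold change of -0.03. *Nr2f2*, a nuclear receptor gene, was called higher (0.60) and *Sox9* lower (-0.55). Of these calls only that of *Otx1* was kept in all 15 alternatives: *Tfeb* was not called with glmTreat or with limma on the deposited values, *Tfec* with that limma fit or without mutant replicate 2, *Nr2f2* with glmTreat, and *Sox9* with glmTreat, with that limma fit or without wildtype replicate 2 or mutant replicate 2. The eye field and neural retina factors *Pax6*, *Rax*, *Lhx2*, *Six3* and *Six6* were not called, with log2 fold changes from -0.10 to 0.09.

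Markers of other cell types moved with the genotype as well. The melanoblast genes *Sox10*, with 24 and 18 reads in wildtype but 92 and 79 in mutant libraries, and *Pax3*, with 15, 3, 63 and 44 reads, were called higher. *Pax3* passed the filter on low counts only through the mutant libraries, so that its call is no support for a difference. The list of 11 melanoblast genes had 5 called higher, *Pax3* included, 1, *Kit*, called lower, and 5 not called. Their median log2 fold change was 1.08, and their summed level was 86.8 to 95.4 CPM in wildtype and 80.4 to 112 CPM in mutant libraries. *Kit* (44.2 and 44.0 CPM) and *Tfap2b* (20.6 and 16.8 CPM) made up most of the wildtype sums. In mutant libraries *Kit* had 29.6 and 26.8 CPM and *Tfap2b*, which was not called, 21.5 and 15.7 CPM. The sums thus say little about the other genes of the list. *Foxd3* had 0 reads in wildtype replicate 2, and *Mc1r*, the melanocortin receptor gene, had 30 to 44 reads in each library. *Sox10* was at 0.258 ± 0.022 CPM in wildtype and 1.03 ± 0.108 CPM in mutant retinas (SD, n = 2).

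Of 10 ciliary margin genes, which mark the peripheral retina next to the pigment epithelium, 9 were called higher and none lower, and their summed level went from 644 to 656 CPM in wildtype to 1157 to 1189 CPM in mutant libraries. Their median log2 fold change was 1.08. Of 11 periocular mesenchyme genes 7 were called higher and none lower, with a summed level of 193 to 278 CPM and 363 to 431 CPM. All 11 macrophage and microglia genes were called higher, from 83.3 to 89.2 CPM in sum to 268 to 326 CPM. Of 8 endothelial genes 6 were called higher and 1, *Kdr*, lower, with sums of 270 to 273 CPM and 282 to 290 CPM. *Kdr* alone made up most of the wildtype sums, with 200 and 211 CPM, and fell to 144 and 137 CPM in mutant libraries. The sums thus do not show the rise of the 6 genes. All 10 tested lens genes were called higher, from a sum of 174 to 421 CPM to a sum of 3344 to 8230 CPM. *Lgsn*, the eleventh, had no reads in 3 libraries.

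Of 8 erythroid genes 5 were tested and 3 called higher, with sums of 490 to 574 CPM and 637 to 641 CPM, while *Hba-a1* and *Hbb-bt* had 0 reads in every library. Of 10 neural retina genes none was called higher and 3, *Pou4f2*, *Isl1* and *Crx*, were called lower, with sums of 2587 to 2790 CPM and 2357 to 2521 CPM. The melanin genes were scaled without the markers of lens, mesenchyme, macrophages, endothelium and erythroid cells in a further fit, and the 8 genes were called there too. The part of these cell types, and of the amount of pigment epithelium or ciliary margin in each pool, in the difference of the melanin genes was not tested.

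**Figure D4:**
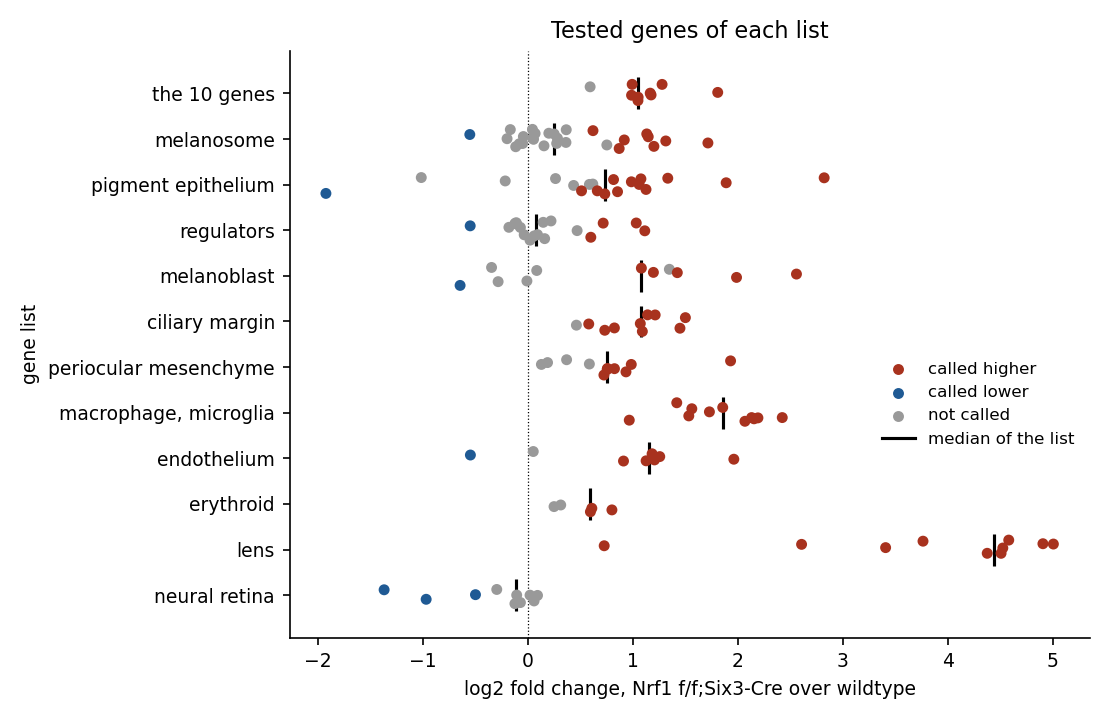
Log2 fold change (*Nrf1 f/f;Six3-Cre* over wildtype) of each tested gene of the lists, 1 row per list, with a black bar at the median; red marks genes called higher, blue genes called lower and grey genes not called. The melanin genes (median 1.05) lie near the ciliary margin (1.08), melanoblast (1.08) and endothelium (1.16) lists and below the macrophage (1.86) and lens (4.44) lists. They lie above the periocular mesenchyme (0.76), pigment epithelium (0.73), erythroid (0.60), melanosome (0.25), regulator (0.08) and neural retina (-0.11) lists.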

How the data were processed

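RNA of 4 libraries of E13.5 retinas (2 wildtype, 2 *Nrf1 f/f;Six3-Cre*) had been extracted with TRI reagent and sequenced as paired ends. The authors aligned reads to mm10 with TopHat2 (version 2.7.2 in the submitters' processing notes, which also name DESeq and limma), and deposited whole-number counts per gene from HTSeq, which were the values tested. The annotation release is not given in the sources used here. The deposited normalized values are on a log2 scale, and how they were made is not given in the sources used here.

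The 5 summary rows of HTSeq, 74.0% to 75.0% of all entries, were left out. Genes were filtered with filterByExpr (minimum count 10), scaled with TMM factors and compared by genotype with edgeR 4.0.16 in R 4.3.3, with Benjamini-Hochberg adjustment over 15762 genes. The thresholds for a call (1.4-fold, adjusted p 0.2) follow the study's methods. The code was tested on simulated counts. SE was derived from the F statistic. Depth was 74577660 to 85933945 reads, and intervals cover the spread of 2 pools only. Alternatives used DESeq2 1.42.0, limma 3.58.1, other scalings, filters, tests and thresholds, a replicate block and each library left out. The genes, lists and tests were chosen with earlier results of these data known. Named genes come from the 10 genes, the lists, *Nrf1* and the 8 genes nearest in pattern (Euclidean distance on centred log2 CPM), and *Cdk2* and *Dgka* were added for their exon overlap with *Pmel*. Coordinates and exon lengths are from GENCODE on GRCm38, and promoters from RefSeq on GRCm38.p6. Not all list genes are named in the text.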

Additional observations from a re-analysis of the deposited data

How the results depend on the processing

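Of 345 values recomputed under 15 alternatives, 318 kept their direction and call, or for counts stayed within 1.5 times and for medians within the spread between replicates. The 8 called melanin genes were kept in 14 alternatives and 6 of them with limma on the deposited values. The replicate numbers did not pair the libraries (correlation of deviations -0.005). With the replicate block 9 of the 9 melanin genes were called, *Mlana* included (log2 fold change 0.72, adjusted p = 0.1215), 2 pigment epithelium genes were called lower, and 1970 and 1256 of all genes were called higher and lower. With glmTreat, which tests against the fold of 1.4, 1188 genes were called higher and 743 lower, 2 regulators higher, and 0 regulators and 0 melanosome genes lower. With limma on the deposited values 945 genes were called higher and 723 lower, 2 regulators higher and 0 lower. When libraries were omitted singly, genes called lower ranged from 0 to 1 in the melanosome list, 1 to 2 in the pigment epithelium list and 0 to 1 in the regulator list, and the median log2 fold change of the regulators ranged from -0.0040, without wildtype replicate 1, to 0.18. The cause was not tested in any of these. Both groups hold 2 libraries, which limits the precision of every value, and *Gpr143*, *Slc45a2* and *Mlana* rest on the fewest reads.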
